A study of Homo sapiens with 54 samples.

Results

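The 33 genes described here mark the differentiated epithelium of the intestine. They were taken from a list of gene symbols, and all 33 were found among the 59368 genes of the quantified transcriptome. By role they comprise 13 genes of absorptive enterocytes and of the epithelial surface, 4 CEACAM adhesion genes, 9 genes of mucus and goblet cell secretion, and 7 transcription factors. They were followed in the human colorectal cancer cell lines HT-29, HCT-116 and DLD-1, each in a version sensitive to 5-fluorouracil (5-FU, an inhibitor of thymidylate synthase) and a version labelled resistant, which the study obtained by passaging the line in rising concentrations of the drug. The study kept the resistant versions in medium with 5-FU, and the labels do not say whether it was withdrawn before the uracil control. Every version received 10 µM uracil for 24 h as the control, 10 µM 5-FU for 24 h, or the same 5-FU followed by X-irradiation at a dose set by the radiosensitivity of each line. Messenger RNA was sequenced from 3 replicates of each of these 18 conditions, giving 54 libraries. The study describes the replicates as biological triplicates, but the labels do not say whether they were grown on separate days, so the p-values measure the spread between these libraries. Each resistant version stands for 1 culture history of its line.

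The intestinal lining is renewed from stem cells at the base of the crypts. Their daughters become absorptive enterocytes, which carry a brush border held by villin (VIL1) and digestive enzymes such as dipeptidyl peptidase 4 (DPP4), aminopeptidase N (ANPEP) and intestinal alkaline phosphatase (ALPI), or secretory cells such as goblet cells, which release gel-forming mucins together with trefoil factors. The homeobox factors CDX1 and CDX2 and the nuclear receptor HNF4A set the intestinal identity of the whole epithelium, ATOH1 opens the secretory lineage, SPDEF matures goblet cells, and KLF4 and KLF5 are zinc finger factors of the differentiated and the dividing compartment, respectively. Colorectal cancer lines retain these programmes to very different degrees.

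Promoter sequences help to place the genes on which the results turn. HNF4A is transcribed from 2 starts, an upstream start known as P2 and a downstream start known as P1, and the windows of 250 bases before each start are shown because its transcripts are followed by start below. The windows of CEACAM5 and CEACAM6 are shown because these neighbours on chromosome 19 moved together, and that of CDX2 because its level separated the lines. All are RefSeq sequence of the GRCh38.p14 assembly, written 5′ to 3′ on the strand of the gene. Capitals in the HNF4A windows mark the KLF element CCNCNCCC and the HNF4 element CAAAGNNCA, those in the CEACAM windows mark the KLF element and the TATA box TATAAA, and those in the CDX2 window mark the CDX element TTTATNG, all on either strand.
HNF4A upstream start P2, chr20:44355449-44355698, plus strand: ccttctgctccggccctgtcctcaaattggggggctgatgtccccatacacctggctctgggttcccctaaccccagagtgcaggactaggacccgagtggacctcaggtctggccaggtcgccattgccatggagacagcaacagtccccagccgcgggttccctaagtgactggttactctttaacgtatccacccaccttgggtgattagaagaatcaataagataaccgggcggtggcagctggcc
HNF4A downstream start P1, chr20:44400989-44401238, plus strand: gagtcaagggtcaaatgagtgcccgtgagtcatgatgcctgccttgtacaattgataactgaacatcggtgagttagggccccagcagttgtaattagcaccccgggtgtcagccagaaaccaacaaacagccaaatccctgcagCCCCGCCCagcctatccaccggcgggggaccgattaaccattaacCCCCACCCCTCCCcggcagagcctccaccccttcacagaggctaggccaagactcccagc
CEACAM5, chr19:41708376-41708625, plus strand: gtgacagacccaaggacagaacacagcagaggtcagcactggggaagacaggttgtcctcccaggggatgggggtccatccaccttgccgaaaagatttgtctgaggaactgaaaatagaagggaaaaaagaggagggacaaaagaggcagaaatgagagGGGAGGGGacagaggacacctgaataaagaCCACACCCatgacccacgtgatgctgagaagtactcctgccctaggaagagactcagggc
CEACAM6, chr19:41755280-41755529, plus strand: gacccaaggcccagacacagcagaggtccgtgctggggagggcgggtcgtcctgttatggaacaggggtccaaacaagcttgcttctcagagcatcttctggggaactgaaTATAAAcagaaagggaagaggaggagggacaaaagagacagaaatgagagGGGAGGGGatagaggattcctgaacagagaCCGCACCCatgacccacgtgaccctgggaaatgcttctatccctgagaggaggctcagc
CDX2, chr13:27969316-27969565, minus strand: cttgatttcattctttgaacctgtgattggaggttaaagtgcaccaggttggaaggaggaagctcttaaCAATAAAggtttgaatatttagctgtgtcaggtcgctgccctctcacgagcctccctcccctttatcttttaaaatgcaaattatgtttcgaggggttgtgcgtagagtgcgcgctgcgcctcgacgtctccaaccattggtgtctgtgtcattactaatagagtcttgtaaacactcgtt
The P1 window of HNF4A held 3 KLF elements on the strand of the gene, the last pair of them overlapping, and the P2 window held neither these letters nor the HNF4 element. The CEACAM5 and CEACAM6 windows were identical at 74.6% of aligned positions and each held 2 KLF elements at like distances from the start. These traits were not particular to the pair. The CEACAM7 window, not shown, was identical to that of CEACAM5 at 80.5% and to that of CEACAM6 at 79.9%. It held 2 KLF elements at like distances too. CEACAM7, below 1 TPM in every library, was not called with 5-FU in sensitive HT-29 cells. The CEACAM6 window also held a TATAAA run, 139 bases before the start. Between the P1 and P2 windows of HNF4A the identity was 48.1%. The table matched 23 of the 33 genes, in 27 windows. The CDX element was present in 6 of the 27 windows and in 8.93% of all 35116 promoter windows of this length, the TATA box in 7 and 10.7%, the HNF4 element in 3 and 4.44%, and the KLF element in 18 and 53.4%. The counts are not all separate. The only CDX match of SPINK4 and of KLF5 lay over the TATAAA run of the same window. MUC1 was counted in both of its windows, which largely overlap. These are matches of letters and describe no binding. CDX1, PHGR1, VIL1, CDH17, EPCAM, TFF1, MUC5AC, TFF3, CA2 and TFF2 were not matched.

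Total estimated counts ranged from 38957142 to 218518344 per library, with a median of 51373543. The deepest library was replicate 2 of sensitive DLD-1 cells under uracil, and the next held 86673615. All 5 epithelial markers on the list used reached 1 TPM, a level corrected for transcript length and library size, on average in all 18 conditions. The libraries labelled resistant HT-29 stood apart from their label. Of 46 genes that marked sensitive HCT-116 cells alone under uracil, 44 reached 1 TPM in them, and of 5 genes that marked sensitive HT-29 cells none did. Resistant DLD-1 cells expressed 16 of 17 DLD-1 markers and resistant HCT-116 cells 44 of 46 HCT-116 markers. The libraries are therefore called labelled resistant HT-29 throughout, and their comparison with sensitive HT-29 cells is given apart from the others. RNA was measured in bulk, so fewer cells of a type and less RNA per cell cannot be told apart.

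Under uracil, sensitive DLD-1 and HT-29 cells expressed many of the differentiation genes and sensitive HCT-116 cells few. At least 1 TPM on average was reached by 19 of the 33 genes in HT-29, 18 in DLD-1 and 7 in HCT-116. In HCT-116 14 genes had at most 3 counts in every library, against 3 in DLD-1 and 2 in HT-29, among the 14 AGR2, MUC13, MUC5AC, PHGR1, CEACAM6 and all 3 trefoil factor genes. DPP4, EPCAM, MUC1, KLF4 and KLF5 reached 1 TPM in all 54 libraries. FABP1, GPA33, SLC26A3, ALPI, ANPEP, CEACAM7, CDX1 and ATOH1 did not reach it in any, so fatty acid binding protein, the chloride exchanger of the colon and alkaline phosphatase of mature enterocytes were barely transcribed in any of the lines. Their highest condition means are given for description, and whether each exceeded all other conditions was not tested. FABP1 had its highest mean in sensitive HT-29 cells under uracil, at 0.316 ± 0.264 (SD, n = 3) TPM, CEACAM7 in the same cells with irradiation, at 0.381 ± 0.171 TPM, and ATOH1 again in these cells under uracil, at 0.488 ± 0.103 TPM. CDX1 was highest in sensitive DLD-1 cells under uracil, at 0.187 ± 0.128 TPM, and GPA33 in irradiated resistant DLD-1 cells, at 0.386 ± 0.186 TPM. ANPEP was highest in the labelled resistant HT-29 libraries under uracil, at 0.499 ± 0.202 TPM, and SLC26A3 in resistant HCT-116 cells under uracil, at 0.115 ± 0.0629 TPM. ALPI never exceeded 0.0449 TPM. REG4 passed 1 TPM on average in irradiated sensitive DLD-1 cells alone, at 1.06 ± 0.266 TPM.

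**Figure D1:**
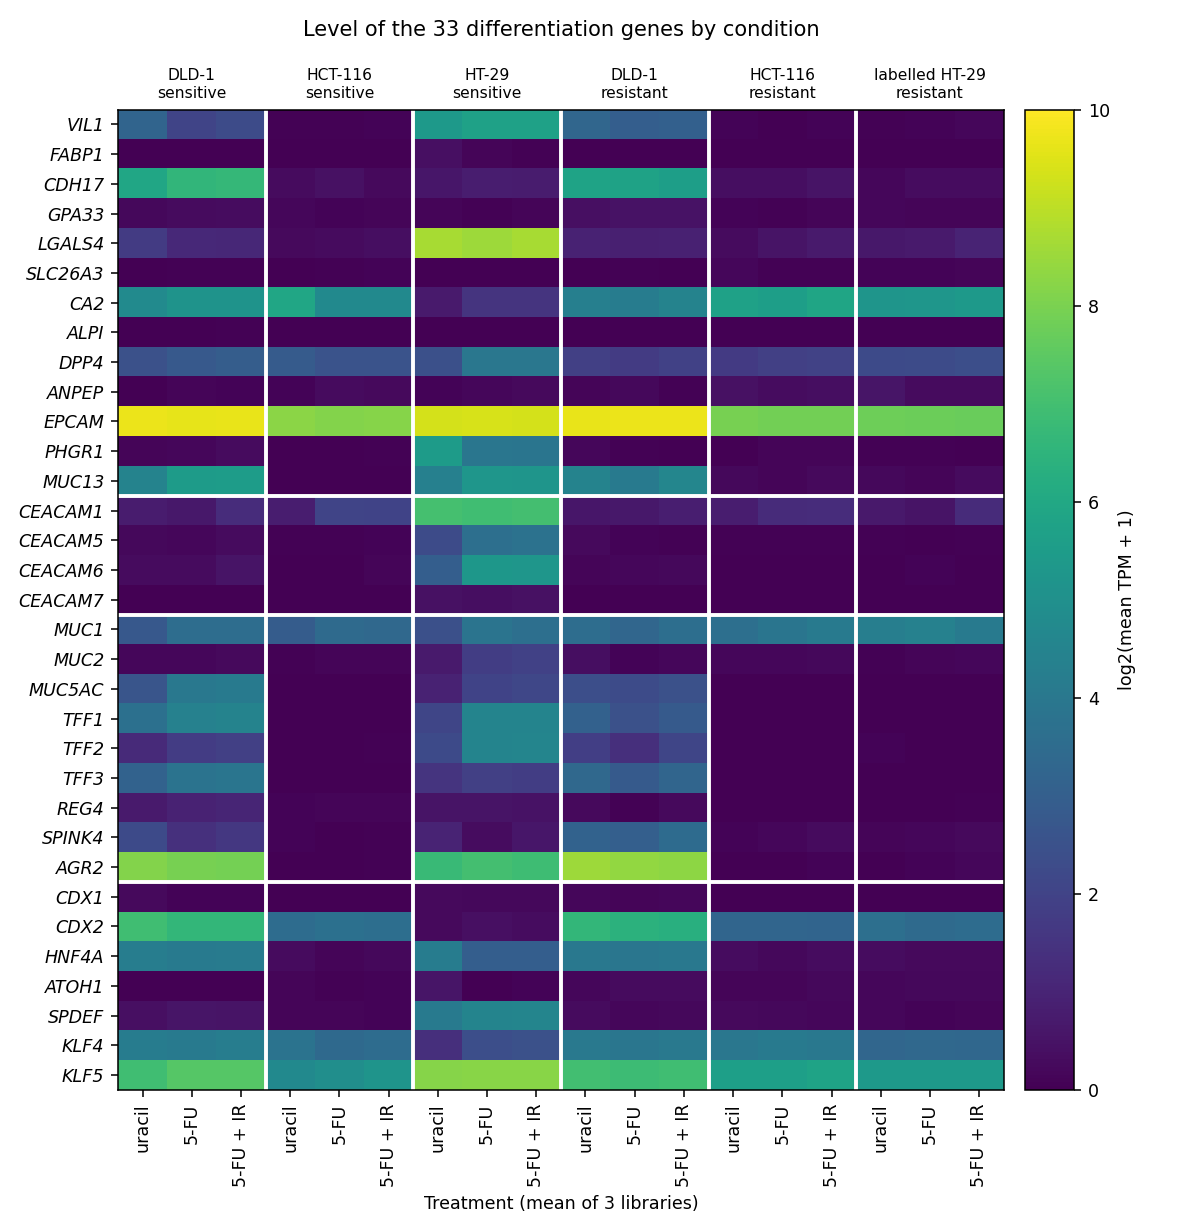
Mean level of each of the 33 genes, as log2 of the mean TPM of 3 libraries plus 1 (colour), in the 18 conditions (left to right), with the genes listed down the side as enterocyte, CEACAM, secretory and transcription factor genes. The HCT-116 conditions and those labelled resistant HT-29 are dark for most genes, while sensitive DLD-1 and HT-29 light up different genes such as CDX2 (120.1 against 0.194 TPM under uracil) and LGALS4 (2.31 against 407.2 TPM).

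Among the enterocyte and surface genes, the adhesion molecule EPCAM had the highest level in each sensitive line under uracil, at 833 ± 19.0 TPM (SD, n = 3, as for all values with ± below) in DLD-1, 649 ± 34.6 TPM in HT-29 and 304 ± 12.1 TPM in HCT-116. LGALS4, a galectin of the brush border, stood at 405, 419 and 398 TPM in the 3 HT-29 libraries, at 4.25, 1.49 and 1.19 TPM in DLD-1, and between 0.139 and 0.247 TPM in HCT-116. The DLD-1 libraries disagreed on this gene, with replicate 1 well above the others. The brush border protein gene VIL1 followed the same order, with 41.5 ± 2.11 TPM in HT-29, 8.26 ± 0.350 TPM in DLD-1 and 0.0529 ± 0.0394 TPM in HCT-116. The intestinal cadherin CDH17 had another order, with 59.1 ± 0.653 TPM in DLD-1, 0.522 ± 0.154 TPM in HT-29 and 0.215 ± 0.0649 TPM in HCT-116. Carbonic anhydrase 2 (CA2), which supplies protons and bicarbonate, had its highest level of the 3 lines in HCT-116, at 59.2 ± 1.33 TPM against 26.9 ± 1.27 TPM in DLD-1 and 0.637 ± 0.229 TPM in HT-29.

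The CEACAM genes, which encode adhesion molecules including carcinoembryonic antigen (CEACAM5), were a feature of HT-29. CEACAM1 stood at 133 ± 5.39 TPM there, against 0.705 ± 0.0652 TPM in DLD-1 and 0.725 ± 0.236 TPM in HCT-116. CEACAM6 stood at 6.95 ± 0.605 TPM and CEACAM5 at 3.90 ± 0.779 TPM in HT-29, and neither exceeded 0.27 TPM in any uracil library of the sensitive DLD-1 or HCT-116 cells. These paralogues have similar sequences, so part of their reads may have been divided between them by estimate. Of the secretory genes, AGR2, a protein disulphide isomerase needed for mucin folding, had the highest level in DLD-1 at 286 ± 7.17 TPM and in HT-29 at 107 ± 6.31 TPM. The gastric-type mucin gene MUC5AC, the trefoil genes TFF1 and TFF3 and the goblet cell peptide gene SPINK4 were higher in DLD-1, with 5.29, 11.9, 7.86 and 3.70 TPM, than in HT-29, with 0.948, 3.27, 1.83 and 1.02 TPM. TFF2 had the reverse order, at 3.72 TPM in HT-29 and 1.31 TPM in DLD-1. The intestinal gel-forming mucin gene MUC2 stayed low everywhere, with 0.647 ± 0.150 TPM in HT-29 as its highest uracil value in a sensitive line.

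The transcription factors divided the lines sharply. CDX2 stood at 122, 115 and 123 TPM in DLD-1 and at 9.41, 11.2 and 11.1 TPM in HCT-116. In HT-29 it stood at 0.181, 0.106 and 0.294 TPM. HNF4A, in contrast, stood at 17.99 ± 0.512 TPM in DLD-1 and 17.4 ± 0.171 TPM in HT-29, levels whose libraries overlapped, and at 0.229 ± 0.0372 TPM in HCT-116. The goblet cell factor SPDEF reached 16.2 ± 0.313 TPM in HT-29 and at most 0.361 TPM in any uracil library of the other sensitive lines. KLF4 was lowest in HT-29, at 1.54 ± 0.253 TPM against 17.4 ± 0.105 TPM in DLD-1 and 12.97 ± 0.599 TPM in HCT-116, whereas KLF5 was highest there, at 291 ± 4.06 TPM against 121 ± 1.64 and 25.7 ± 2.29 TPM.

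To test these differences, the 18 uracil libraries were fitted together with edgeR's quasi-likelihood test, and a gene was called where its Benjamini-Hochberg adjusted p, over all genes tested, was at most 0.01 and its log2 fold change at least 1 in size. Of the 33 genes, 30 could be tested. Against DLD-1, 12 of them were called higher in HT-29 and 9 lower, where 14% and 17.8% of all genes were called higher and lower. The 8 largest differences on at least 1 TPM were those of CDX2 (log2 difference HT-29 minus DLD-1 -9.31, SE 0.116, adjusted p 3.05e-24), CEACAM1 (8.68, SE 0.164, adjusted p 1.49e-21), PHGR1, a short histidine- and glycine-rich protein of the gut (8.53, SE 0.326, adjusted p 3.93e-14), LGALS4 (7.93, SE 0.221, adjusted p 1.13e-18), CDH17 (-7.00, SE 0.118, adjusted p 2.22e-22), SPDEF (5.87, SE 0.145, adjusted p 1.37e-19), CA2 (-5.48, SE 0.119, adjusted p 1.42e-20) and CEACAM6 (5.16, SE 0.193, adjusted p 3.85e-13). HNF4A differed by 0.21 between these lines, below the fold required, and DPP4, MUC13, MUC1 and EPCAM were not called.

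Against HCT-116, 23 of 30 genes were called higher in HT-29 and 3 lower, where 16.4% and 22.2% of all genes were. DLD-1 had 20 higher and 2 lower against HCT-116, where the shares of all genes were 13.5% and 17.7%. Because many of these genes had at most 3 counts in every HCT-116 library, their differences are lower bounds, computed against 3 counts per library. AGR2 was at least 2806-fold higher in DLD-1 and at least 1146-fold higher in HT-29. The membrane mucin gene MUC13 was at least 625.8-fold higher in DLD-1 and at least 585.2-fold higher in HT-29, and MUC5AC at least 1350-fold higher in DLD-1. PHGR1 and CEACAM6 were at least 166.4-fold and 197.1-fold higher in HT-29, and TFF3 and TFF1 at least 87.95-fold and 50.06-fold higher in DLD-1. The 3 genes called lower in HT-29 than in HCT-116 were CA2, CDX2 and KLF4, and those lower in DLD-1 were CA2 and ATOH1.

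By number of calls, 5-FU changed more of these genes in sensitive HT-29 cells than in the other lines, although their median log2 change was like that in DLD-1. Of 29 genes tested, 10 rose and 4 fell, where 8.86% of the 23756 genes tested rose and 3.3% fell, and the median log2 change of the 29 was 0.19 beside 0.03 over all genes. By group, 5 of 8 secretory genes rose and none fell (median 1.45), 2 of 4 CEACAM genes rose (0.61), 2 of 10 enterocyte genes rose and 2 fell (0.18), and 1 of 7 transcription factors rose and 2 fell (-0.33). The log2 changes come from counts normalised by the trimmed mean of M values (TMM). TPM, in contrast, is a share of the library, and the 2 scales moved apart after 5-FU, as for EPCAM (649 to 669 TPM beside a fitted log2 change of -0.19).

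Mucus and trefoil genes rose together in HT-29. TFF1, a peptide that protects mucosal surfaces, went from 3.74, 4.38 and 1.70 TPM under uracil to 22.3, 21.3 and 21.45 TPM under 5-FU (log2 change 2.47, SE 0.205, edgeR adjusted p 2.39e-09). TFF2, its neighbour on chromosome 21, went from 4.19, 4.00 and 2.99 TPM to 20.5, 20.6 and 23.45 TPM (2.31, SE 0.141, adjusted p 4.59e-12). Every treated library lay far above every control for both genes. TFF3, the trefoil gene typical of intestinal goblet cells, was not called, with 2.74 ± 0.198 TPM under 5-FU against 1.83 ± 0.287 TPM. MUC2 rose from 0.591, 0.533 and 0.816 TPM to 2.21, 2.66 and 2.73 TPM (1.84, SE 0.114, adjusted p 2.8e-13). MUC1, a membrane mucin, rose from 4.40 ± 1.44 to 13.6 ± 0.701 TPM and MUC5AC from 0.948 ± 0.333 to 2.99 ± 0.298 TPM, with log2 changes of 1.45 and 1.45. SPINK4, at 1.02 ± 0.486 TPM, stood at 0.250 ± 0.0893 TPM under 5-FU, and neither it nor AGR2 (107 and 127 TPM) was among those called.

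CEACAM genes separated from each other. CEACAM6 rose from 6.57, 7.64 and 6.62 TPM to 37.8, 38.7 and 38.7 TPM (log2 change 2.21, SE 0.0677, edgeR adjusted p 3.98e-17), and CEACAM5 from 3.28, 3.65 and 4.77 TPM to 10.9, 12.6 and 11.6 TPM (1.52, SE 0.0757, adjusted p 4.05e-15). CEACAM1, which began at a much higher level, had 116, 124 and 123 TPM under 5-FU after 131, 129 and 139 TPM without it, a log2 change of -0.43 that passed the adjusted p but not the fold required. CEACAM7 had 0.362 and 0.281 TPM.

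Enterocyte genes went both ways. DPP4 rose from 4.17, 4.30 and 5.00 TPM to 14.4, 14.5 and 15.4 TPM (log2 change 1.56, SE 0.062, edgeR adjusted p 5.42e-17), and CA2 rose from 0.637 ± 0.229 to 1.83 ± 0.198 TPM (1.47). PHGR1 fell from 45.8, 40.0 and 44.2 TPM to 13.8, 14.9 and 14.5 TPM (-1.77, SE 0.123, adjusted p 1.07e-11). GPA33, a surface antigen of the colon at under 0.11 TPM, fell to at most 3 counts per library, at least 3.11-fold lower. MUC13 stood at 37.3 ± 0.441 TPM under 5-FU and 19.6 ± 0.620 TPM without it, a fitted log2 change of 0.63 below the fold required. LGALS4, VIL1 and EPCAM likewise stayed within the fold required, at 407 and 366 TPM, 41.5 and 52.1 TPM, and 649 and 669 TPM.

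Of the transcription factors, HNF4A fell from 17.6, 17.3 and 17.3 TPM to 7.08, 7.01 and 6.63 TPM (log2 change -1.68, SE 0.0519, edgeR adjusted p 3.69e-19), and ATOH1 from 0.488 ± 0.103 to 0.0178 ± 0.0239 TPM (-5.08). KLF4 rose from 1.54 ± 0.253 to 4.34 ± 0.297 TPM (1.30). CDX2 remained under 0.4 TPM in the treated libraries, SPDEF had 16.2 ± 0.313 and 21.8 ± 1.10 TPM, and KLF5 291 ± 4.06 and 295 ± 9.83 TPM, none of them called.

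**Figure D2:**
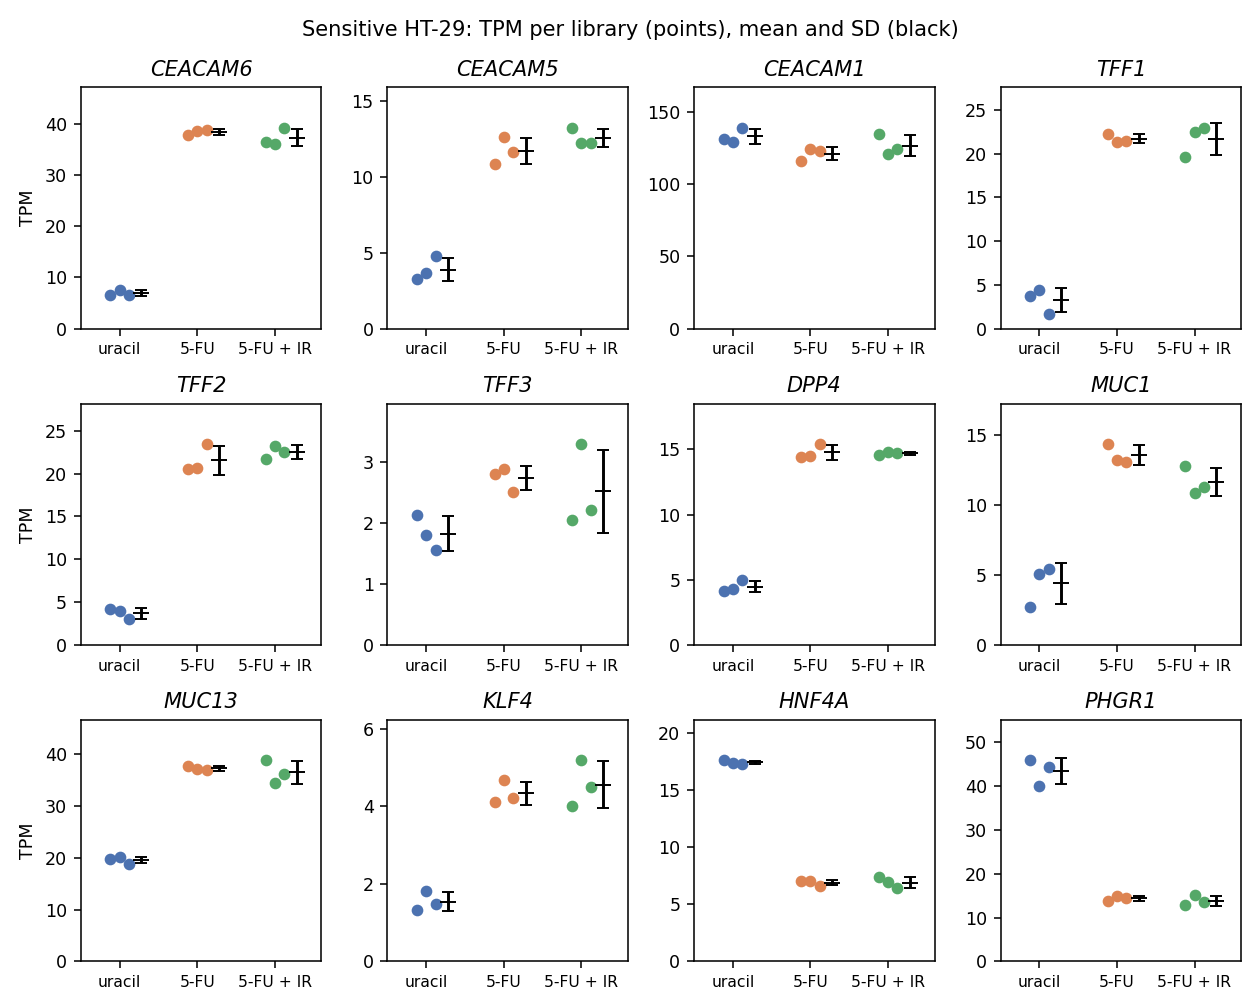
TPM of 12 differentiation genes in sensitive HT-29 cells under uracil, 5-FU and 5-FU with irradiation (points are the 3 libraries of each condition, horizontal black ticks the mean, bars the SD, each panel with its own vertical axis from 0). In the panels of CEACAM6, CEACAM5, TFF1, TFF2, DPP4, MUC1 and KLF4 the 5-FU libraries all lie above the uracil libraries, in those of HNF4A and PHGR1 all lie below, and the points with and without irradiation sit at like heights, as for CEACAM6 at 38.4 and 37.3 TPM.

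Other genes of these programmes were followed in further lists. Of 20 other enterocyte genes tested in sensitive HT-29 cells, 2 rose and 2 fell after 5-FU. The keratin gene KRT20, of mature surface cells, rose from 161 ± 9.58 to 557 ± 5.90 TPM (1.54), GUCA2A, encoding guanylin, rose from 0.372 to 3.98 TPM (3.25), and the glucose transporter gene SLC5A1 fell from 1.60 to 0.469 TPM (-1.91). Of 17 other goblet cell genes, 3 rose and 2 fell, including the membrane mucin gene MUC4, from 0.284 to 1.39 TPM (2.88), KLK1, from 7.17 to 18.8 TPM (1.17), and RETNLB, from 3.39 to 0.461 TPM (-3.17). Of 23 other epithelial transcription factors, none rose and 6 fell. HNF4G, the paralogue of HNF4A, fell from 24.5 ± 1.23 to 6.09 ± 0.630 TPM (-2.47). Of 16 junction genes, CLDN2, a pore-forming claudin, fell from 31.4 ± 1.54 to 4.31 ± 0.171 TPM (-3.11), and none of the others was called.

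Markers of some other cell types moved along with these changes, and their part in them was not tested. Of 2 Paneth cell, 5 enteroendocrine and 4 tuft cell markers tested none was called, and of 8 mesenchymal markers 2 rose. The summed level of the 10 gastric markers ranged from 6.92 to 9.89 TPM under uracil and from 46.6 to 50.3 TPM under 5-FU, with 2 and then 4 of the 10 at 1 TPM. The list includes the members TFF1, TFF2 and MUC5AC, so this sum is not separate from their own changes. The summed level of the 5 leukocyte markers ranged from 3.77 to 6.52 TPM and from 17.7 to 21.8 TPM. In both conditions 1 of the 5 reached 1 TPM, CD68, a lysosomal protein gene (4.31 ± 1.56 and 18.9 ± 2.16 TPM), while the defining leukocyte gene PTPRC had 0.101 and 0.0494 TPM. Of 8 stem cell markers, 5 reached 1 TPM under uracil and 6 under 5-FU, with sums of 150 to 158 TPM and 128.0 to 130 TPM. ASCL2 (log2 change -2.89), LGR5 (-1.32) and PROM1 (-1.18) fell and EPHB2 (1.32) rose. The 5 epithelial markers summed to between 8307 and 9112 TPM under uracil and between 13360 and 13550 TPM under 5-FU. On the fitted scale all 5 passed the adjusted p, none was called, and their median log2 change was 0.29.

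The fall of HNF4A in HT-29 was seen from both starts. Transcripts from P1 stood at 11.1, 12.6 and 12.2 TPM under uracil and at 4.76, 4.74 and 4.85 TPM under 5-FU, and those from P2 at 6.54, 4.77 and 5.14 TPM and then at 2.31, 2.28 and 1.78 TPM. No treated library overlapped a control for either start. The share of P1 was 68.5 ± 5.03% under uracil and 69.4 ± 3.33% under 5-FU. In sensitive DLD-1 cells P1 transcripts stood at 11.7 ± 0.143 TPM under uracil and 10.6 ± 0.194 TPM under 5-FU, and the share of P1 was 65.3 ± 1.33% and 65.3 ± 0.980%. Shares are estimates, since most of the sequence is common to the transcripts.

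**Figure D3:**
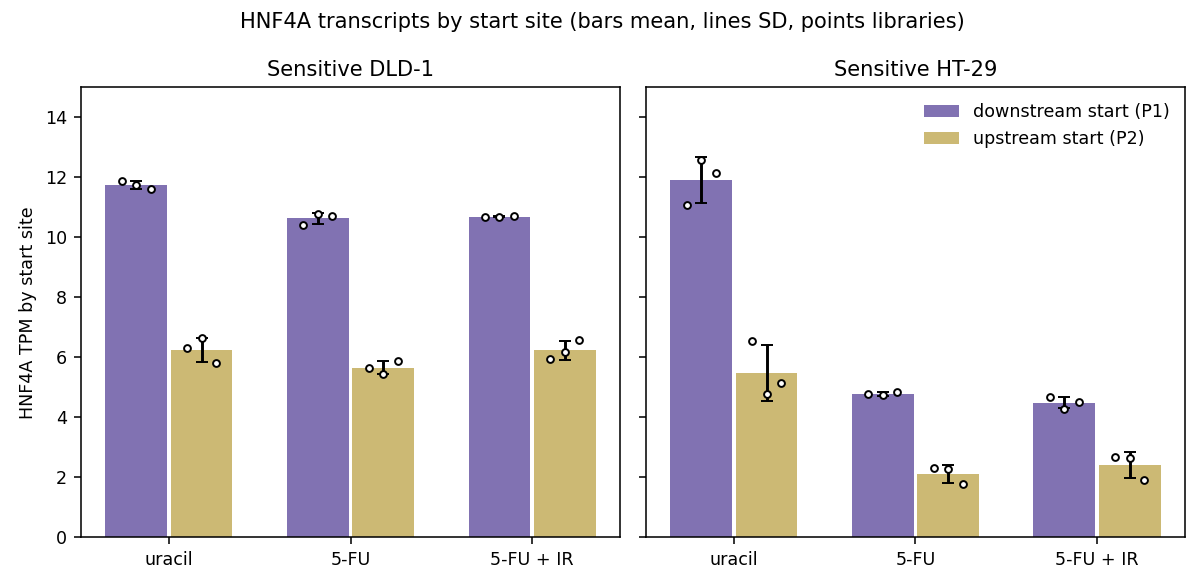
HNF4A level by start site in TPM (bars, mean of 3 libraries; black lines, SD; open points, libraries) in sensitive DLD-1 (left) and sensitive HT-29 cells (right) under uracil, 5-FU and 5-FU with irradiation, both axes from 0. In HT-29 both bars are lower after 5-FU (P1 from 11.9 to 4.78 TPM, P2 from 5.48 to 2.12 TPM), and in DLD-1 the P1 bars stand at 11.7 and 10.6 TPM.

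Transcripts of 2 further genes were compared in the same way. In HT-29 the transcript ENST00000403444 held 48.5% of the CEACAM1 level under uracil and 49.2% under 5-FU, and ENST00000161559 held 21.4% and 19.0%. For KLF5, ENST00000377687 held 72.5% of the level in HT-29 under uracil, 81.4% in DLD-1 and 83.3% in HCT-116. A transcript of 130 bases, ENST00000464404, took 12.6% of the KLF5 level in HT-29 under uracil and 19.5% under 5-FU, and 10.6% and 20.0% in DLD-1, on only 28.4 and 63.1 and on 22.7 and 30.7 estimated counts. The KLF5 level in TPM is therefore partly that of this short transcript.

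In sensitive DLD-1 cells fewer of the genes were called. Of 26 genes tested, 2 rose and 2 fell, where 2.66% of the 21814 genes tested rose and 1.37% fell, and the median log2 change was 0.20 beside 0.015 over all genes. Of 9 secretory genes 2 rose and 1 fell, with a median of 0.66. VIL1 fell from 8.06, 8.66 and 8.05 TPM to 3.03, 3.15 and 3.16 TPM (log2 change -1.44, SE 0.143, edgeR adjusted p 5.33e-08). MUC5AC rose from 4.21, 6.61 and 5.04 TPM to 16.7, 16.5 and 11.4 TPM (1.37, SE 0.143, adjusted p 1.07e-07), and SPINK4 fell from 4.42, 3.17 and 3.5 TPM to 1.51, 1.42 and 1.99 TPM (-1.26, SE 0.23, adjusted p 0.000125). The groups did not overlap for these 3 genes. MUC2, the other gene called higher (1.25), had 0.126 ± 0.140 and 0.123 ± 0.0490 TPM, and with counts corrected for transcript length its log2 change was -0.08. The fitted value therefore gives no direction, and the cause of the change in sign was not tested.

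Several DLD-1 genes passed the adjusted p with smaller changes. MUC13 stood at 44.1 ± 0.771 TPM under 5-FU and 21.3 ± 0.483 TPM without it (log2 change 0.93), CDH17 59.1 ± 0.653 and 95.5 ± 0.705 TPM (0.60), TFF3 7.86 ± 0.269 and 12.99 ± 1.26 TPM (0.71), TFF1 11.9 ± 0.826 and 20.2 ± 2.12 TPM (0.66) and MUC1 5.70 ± 1.54 and 10.99 ± 1.23 TPM (0.62). CDX2 had 120.1 ± 4.45 and 97.2 ± 4.06 TPM (-0.35) and HNF4A 17.99 ± 0.512 and 16.3 ± 0.281 TPM (-0.26). In all, 15 of the 26 passed the adjusted p alone. An unadjusted edgeR p of 0.05 passed 19 of the 26, beside 11060 of all 21814 genes, so changes of any size were common. Among other genes, 1 enterocyte gene rose and 2 fell of 20 tested, 2 goblet cell genes rose and 3 fell of 16, including GALNT12, which starts O-glycans of mucins, from 27.3 to 14.0 TPM (-1.11), and none of 22 transcription factors was called. CLDN1 rose from 6.63 to 14.4 TPM (1.06) and CLDN2 fell from 25.6 to 11.3 TPM (-1.30), of 16 junction genes. The 10 gastric markers summed to between 18.4 and 19.2 TPM under uracil and between 37.1 and 39.8 TPM under 5-FU. The 3 of them at 1 TPM were members, MUC5AC, TFF1 and TFF2, so the sum is not separate from the member changes. The 8 stem cell markers summed to between 518.7 and 530.2 TPM under uracil and between 332.4 and 355.8 TPM under 5-FU, 6 of them at 1 TPM in both. None of the 6 tested was called, 5 passed the adjusted p, and their median log2 change was -0.75. Their part in the member changes was not tested.

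In sensitive HCT-116 cells 17 genes could be tested, of which 3 rose and 2 fell, where 4.79% of the 22975 genes tested rose and 3.36% fell. The median of the 17 was 0.08 beside 0.03 over all genes. CA2 fell from 60.72, 58.7 and 58.3 TPM to 25.5, 26.2 and 26.5 TPM (log2 change -1.20, SE 0.0615, edgeR adjusted p 3.25e-13). CEACAM1 rose from 0.997, 0.584 and 0.594 TPM to 3.72, 2.83 and 2.75 TPM (1.76, SE 0.16, adjusted p 4.22e-09). No library of one condition entered the range of the other for these 2 genes. The other 3 called were CDH17, MUC2 and HNF4A, all under 0.42 TPM in every library, and CDH17 and HNF4A were lost without replicate 1 or without replicate 2, which left 3 calls. With length-corrected counts CDH17 and MUC2 were lost, again leaving 3. When libraries were scaled by size alone, 3 rose and 1 fell. CDX2, at 10.6 ± 1.01 and 11.8 ± 2.48 TPM, and EPCAM, at 304 ± 12.1 and 284 ± 5.72 TPM, were not called. Of other genes, 3 of 19 enterocyte genes rose and 1 fell, among them MYO1A, the brush border myosin (0.383 to 1.31 TPM, 1.26). Of 15 goblet cell genes 1 rose and 2 fell (FCGBP 1.06, KLK1 -1.29, GALNT12 -1.12). None of 20 transcription factors and 1 of 16 junction genes was called.

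Few of these genes changed further when irradiation was added to 5-FU. No member was called in any sensitive line by edgeR or by DESeq2, where 0.00842% of all genes were called in either direction in HT-29 and 0% in the others. At an unadjusted p of 0.05 edgeR passed 2 members in HT-29, 2 in DLD-1 and 1 in HCT-116. The same cut passed 786 of all 23756 genes in HT-29, 2447 of 21814 in DLD-1 and 1943 of 22975 in HCT-116. In sensitive HT-29 cells HNF4A had 6.91 ± 0.243 TPM without and 6.90 ± 0.469 TPM with irradiation, and TFF2 21.5 ± 1.68 and 22.5 ± 0.787 TPM. In resistant DLD-1 and HCT-116 cells no member was called either, where 0.142% and 0.0261% of all genes were. An unadjusted edgeR p of 0.05 passed 11 of 26 and 3 of 17 members, beside 4714 of 21814 and 4305 of 22975 genes. In resistant DLD-1 cells 3 members passed the adjusted p below the fold required, MUC13 with 15.9 ± 0.329 TPM without and 22.8 ± 2.00 TPM with irradiation (log2 change 0.51), MUC1 with 8.95 ± 1.73 and 11.3 ± 1.61 TPM (0.38), and CA2 with 17.4 ± 0.898 and 21.2 ± 1.16 TPM (0.29). The levels of MUC1 overlapped and those of MUC13 and CA2 did not. TFF2 in the same cells had 1.56 ± 0.178 and 3.25 ± 0.320 TPM and was not called. In the labelled resistant HT-29 libraries 2 were called, beside 0.434% of all genes. CEACAM1 rose from 0.423 ± 0.172 to 1.37 ± 0.0682 TPM (log2 change 1.32, SE 0.16, adjusted p 9.87e-07), and MUC2, at 0.108 ± 0.101 and 0.132 ± 0.0127 TPM, was called on overlapping levels. That call was lost without replicate 2, which left 1.

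The resistant versions showed no called response of these genes to 5-FU. By edgeR and by DESeq2 the count was 0 in each, of 17 genes tested in HCT-116, 26 in DLD-1 and 29 in the labelled resistant HT-29 libraries, where 0%, 0.0138% and 0.00421% of all genes were called in either direction. At an unadjusted p of 0.05 edgeR passed 2, 13 and 1. The same cut passed 1878 of all 22975 genes, 4041 of 21814 and 1280 of 23756. Resistant DLD-1 cells had 21.1 ± 1.05 TPM of MUC13 under uracil and 15.9 ± 0.329 TPM under 5-FU, a log2 change of -0.34 that passed the adjusted p and not the fold required. CA2 in resistant HCT-116 cells had 52.3 ± 1.42 and 48.1 ± 1.26 TPM.

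Whether the response differed between the versions was tested directly, as the log2 change with 5-FU in resistant cells minus that in sensitive cells, called at the adjusted p alone. In DLD-1 it differed for 13 of 26 genes, 3 higher and 10 lower, where 22.8% of all genes were called in either direction. When libraries were scaled by size alone the counts were 1 higher and 11 lower, without replicate 2 they were 1 higher and 7 lower, and without replicate 3 they were 0 higher and 6 lower. Of 9 secretory genes 6 were called lower and 1 higher, with differences of -1.49 for MUC5AC, -1.37 for TFF1 and -1.19 for TFF3. Of 8 enterocyte genes 3 were lower and 2 higher. Among them MUC13 differed by -1.26, with fitted changes of 0.93 in sensitive cells and -0.34 in resistant cells. The difference for VIL1 was 1.22, from a fall in sensitive cells and values of 8.79 ± 3.51 and 6.98 ± 0.670 TPM in resistant cells. Replicate 1 of the latter under uracil stood at 12.8 TPM, and it differed from its replicates in its counts as a whole. In HCT-116 the response differed for 5 of 17 genes, 3 higher and 2 lower, where 29.7% of all genes were called in either direction. CA2 (1.03), DPP4 (0.70) and KLF4 (0.50) were higher and CEACAM1 (-1.57) and MUC2 (-1.43) lower, and 3 of these were still called without replicate 1 or without replicate 2. With length-corrected counts 2 were called, CA2 and KLF4. For the labelled resistant HT-29 libraries the contrast gave 3 higher and 7 lower of 29, beside 35.4% of all genes, and it sets libraries with HCT-116 markers against HT-29 cells.

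**Figure D4:**
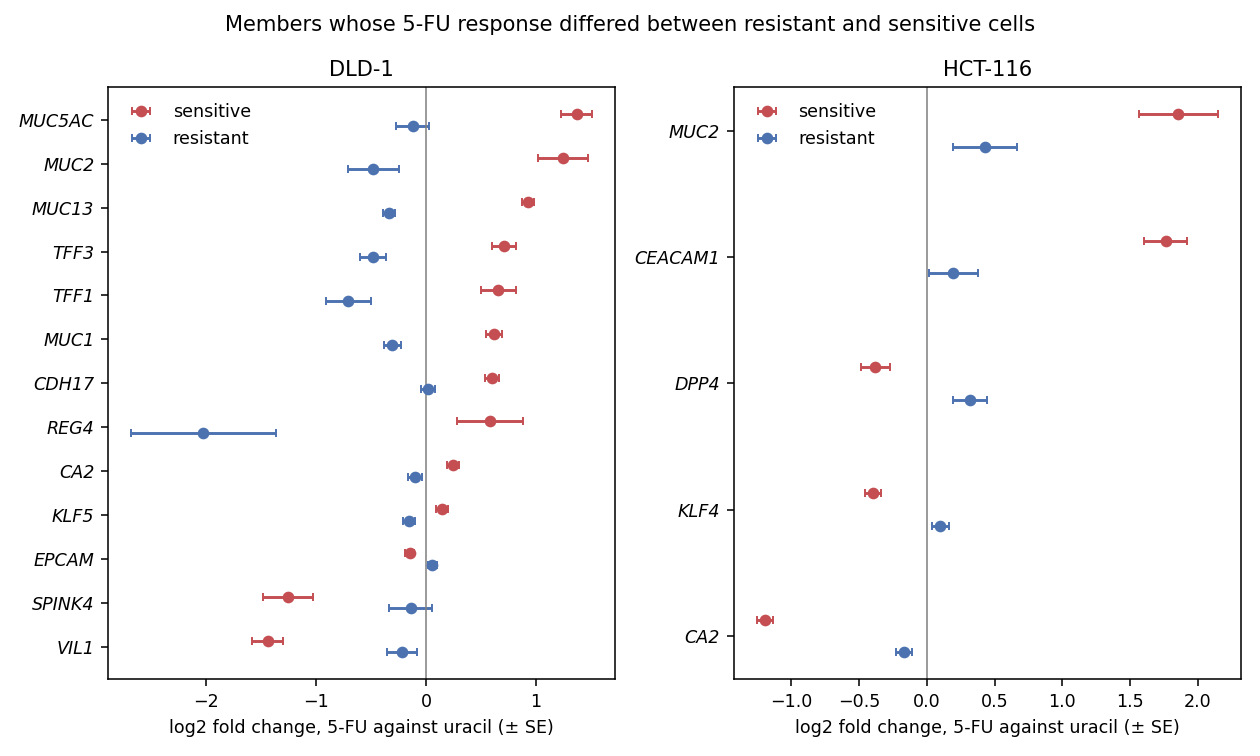
Log2 fold change with 5-FU against uracil (points, with bars of 1 standard error from edgeR) in sensitive (red) and resistant (blue) DLD-1 cells for the 13 genes, and HCT-116 cells for the 5 genes, whose response differed between the versions, with a vertical line at 0. Resistant points lie nearer 0 than sensitive points except for KLF5, REG4 and TFF1 in DLD-1, as for MUC5AC in DLD-1 (1.37 in sensitive and -0.12 in resistant cells), and REG4 in resistant DLD-1 has a wide bar.

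Without 5-FU, few of the genes differed beyond the fold required between resistant and sensitive DLD-1 cells. Of 26 genes, 12 passed the adjusted p alone. An unadjusted edgeR p of 0.05 passed 19 of the 26, beside 9225 of all 21814 genes. Under uracil 3 of 26 were called higher and 1 lower in resistant cells, where 3.69% and 2.01% of all genes were. SPINK4 had 4.42, 3.17 and 3.5 TPM in sensitive and 8.25, 8.43 and 7.06 TPM in resistant cells (log2 difference 1.12, SE 0.196, edgeR adjusted p 0.000116), which fell just below the fold required without the deepest library, at 0.99. REG4, a secreted lectin, was lower, at 0.672 ± 0.110 and 0.196 ± 0.141 TPM (-1.74), ATOH1 was at least 3.95-fold higher, at 0.141 ± 0.0875 TPM, and MUC2 was called on overlapping levels, a call lost with length-corrected counts. ATOH1 and REG4 were lost when only the compared groups were fitted, which left 2 calls. MUC1 had 5.70 ± 1.54 and 10.9 ± 1.15 TPM (0.91) and DPP4 4.57 ± 0.363 and 2.68 ± 0.978 TPM (-0.68), both below the fold required. Of 20 other enterocyte genes 3 were higher and 3 lower, among them KRT20 (52.3 to 136.7 TPM, 1.36), MALL (28.6 to 66.3 TPM, 1.16) and ESPN, an actin-bundling protein (0.953 to 3.67 TPM, 2.07). GFI1, a secretory lineage factor, was higher (2.85 to 8.81 TPM, 1.40).

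In HCT-116 3 of 17 genes were called higher and 1 lower in resistant cells, where 4.17% and 6.8% of all genes were. DPP4 had 6.45, 6.33 and 6.39 TPM in sensitive and 1.86, 1.99 and 2.80 TPM in resistant cells (log2 difference -1.54, SE 0.12, edgeR adjusted p 4.12e-10), with no overlap. The 3 called higher were ANPEP (1.52), MUC13 (at least 3.40-fold) and MUC2 (1.85), all under 0.5 TPM, and MUC2 lost its call with length-corrected counts (1.27). KLF5 had 25.7 ± 2.29 and 49.4 ± 4.59 TPM (0.69), below the fold required. The further lists differed in their counts, and the difference between lists was not tested. Of 19 other enterocyte genes 3 were higher and 3 lower, and of 15 other goblet cell genes 2 were higher and 2 lower. Of 20 other transcription factors none was higher and 8 were lower, with a median of -0.84 beside 0.0046 over all genes, among them NR5A2, a nuclear receptor of the crypt (21.8 to 2.15 TPM, -3.24), and GRHL2, which maintains epithelial junction genes (6.46 to 1.09 TPM, -2.57). Of 16 junction genes none was higher and 6 were lower, among them E-cadherin (CDH1, 26.4 ± 0.406 to 7.02 ± 0.625 TPM, -1.95). The 10 mesenchymal markers summed to between 41.8 and 49.5 TPM in sensitive and between 38.5 and 48.6 TPM in resistant cells, 5 of the 10 at 1 TPM in both.

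The libraries labelled resistant HT-29 differed from sensitive HT-29 cells at most of these genes. Of 29 tested, 3 were called higher and 22 lower, where 21.4% and 18% of all genes were. AGR2 was at least 956.9-fold lower, CEACAM6 at least 164.6-fold, PHGR1 at least 139-fold, TFF3 at least 16.2-fold and TFF1 at least 11.4-fold. VIL1 (log2 difference -11.8, SE 0.163, edgeR adjusted p 9.83e-28), LGALS4 (-10.4, SE 0.194, adjusted p 4.15e-25) and CEACAM1 (-8.83, SE 0.0761, adjusted p 7.1e-31) were lower as well. The 3 higher were CA2 (0.637 to 36.6 TPM), CDX2 (0.194 to 11.4 TPM) and KLF4 (1.54 to 8.98 TPM). Set against sensitive HCT-116 cells, the same libraries had 2 of 30 members called higher and none lower, where 1.82% and 5.04% of all genes were, namely MUC1 (6.52 ± 2.21 and 18.6 ± 1.64 TPM, 1.10) and MUC13 (at least 2.32-fold). Over the 33 genes the root mean square distance in log2(TPM + 1) was 0.372 to sensitive HCT-116, 0.256 to resistant HCT-116 and 3.19 to sensitive HT-29. The mean distance between replicates was 0.169, and sensitive HT-29 and HCT-116 lay 3.26 apart. Resistant DLD-1 lay 0.415 from sensitive DLD-1, and resistant HCT-116 0.336 from sensitive HCT-116. The 10 mesenchymal markers summed to between 41.9 and 48.9 TPM in the labelled resistant HT-29 libraries and to between 3.43 and 4.57 TPM in sensitive HT-29 cells. The 3 higher and 22 lower calls hold between these libraries, and resistance and line cannot be told apart in them.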

How the data were processed

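Messenger RNA of 54 libraries was measured, 3 in each of 18 conditions. The authors trimmed the reads with Trimmomatic 0.36 after FastQC 0.11.8, quantified them with kallisto 0.44.0 against Ensembl transcripts of GRCh38.p13, and deposited estimated counts and TPM values, with gene values as sums over transcripts. The deposited estimated counts, 60.7% of them whole, were rounded before testing. Total estimated counts were 38957142 to 218518344 per library. Intervals were not computed for TPM, and depth limits genes at a few counts.

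Groups were taken from the labels. The counts of each line (18 libraries) and of the 18 uracil libraries were fitted with the quasi-likelihood test of edgeR 4.0.16 in R 4.3.3 after TMM scaling and filterByExpr, on 21814 (DLD-1), 22975 (HCT-116), 23756 (HT-29) and 23466 (uracil) genes. Calls required p, adjusted by Benjamini and Hochberg over all genes tested, of at most 0.01 and an absolute log2 fold change of at least 1, or the adjusted p alone for the difference of 2 responses. Genes with at most 3 counts in every library of a group were at the floor, and folds against them are bounds from 3 counts per library. Genes given with full statistics were the 8 members with the largest absolute change among those called and at 1 TPM or more on average in either group, and others are given by level. From each further list at most 3 genes were named by the same rule. The genes and lists were chosen with earlier results of these data known, and 2 alternatives, without the libraries labelled resistant HT-29 and without the deepest library, were added after seeing the data. Other alternatives were DESeq2 1.42.0, library size as the only scaling, no filter on low counts, only the compared groups, a replicate block, each replicate left out and length-corrected counts. On simulated counts 200 of 200 genes changed by 1.5 log2 units were recovered in each fit, with at most 2 false calls. The changed genes were drawn from well-counted genes, with the same dispersion for every gene, so this does not cover genes at a few counts. No pair of replicates was a repeated library. Promoters are RefSeq sequence. Results for some genes of the further lists are not reported here.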

Additional observations from a re-analysis of the deposited data

Results flagged for a closer look

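The 5-FU response differed between resistant and sensitive cells, by the test of the difference itself (edgeR, adjusted p at most 0.01), for 13 of 26 genes in DLD-1, where 22.8% of all genes were called, and for 5 of 17 in HCT-116, a share near the 29.7% of all genes called there. Each value is the log2 change in resistant cells minus that in sensitive cells. In DLD-1 the secretory genes REG4 (-2.61), MUC2 (-1.72), MUC5AC (-1.49), TFF1 (-1.37), TFF3 (-1.19) and MUC1 (-0.93) had lower values and SPINK4 (1.12) a higher one. Of the enterocyte genes MUC13 (-1.26), CDH17 (-0.59) and CA2 (-0.34) were lower, and VIL1 (1.22) and EPCAM (0.21) higher, and KLF5 (-0.30) was the only transcription factor of the 13. In HCT-116 the values were 1.03 for CA2, 0.70 for DPP4 and 0.50 for KLF4, and -1.57 for CEACAM1 and -1.43 for MUC2. The sensitive DLD-1 change of MUC2 behind its difference turned to -0.078 with length-corrected counts, and MUC2 then lost its call in both lines. MUC2 and REG4 rest on mean levels under 1 TPM in both conditions of these lines. Replicate 1 of resistant DLD-1 under uracil stood apart for VIL1, at 12.8 TPM against 6.31 and 7.25 TPM. It also stood apart in its counts as a whole. A chi-square measure of disagreement, scaled by its degrees of freedom, gave 24.54 and 21.1 against replicates 2 and 3. These were the highest values of any replicate pair, and replicates 2 and 3 gave 3.333. This library is a control in each resistant DLD-1 comparison that uses uracil. VIL1 was still called without replicate 1 and without replicate 2, and not without replicate 3.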

How the results depend on the processing

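Of 213 counts of members under the alternatives, in 22 comparisons, 197 stayed within 1.5 times the reported count and 16 did not. For resistant DLD-1 the count with irradiation went from 0 to 1 (CEACAM1) with no filter on low counts or with only the compared groups, and the resistance count went from 4 to 2 with only the compared groups. Leaving out a replicate gave 6 to 10 genes, in place of 13, for the difference of DLD-1 responses, 3 to 5 in place of 5 for 5-FU in sensitive HCT-116, 3 to 4 in place of 5 for the difference of HCT-116 responses, and 1 to 2 in place of 2 for irradiation in labelled resistant HT-29. With length-corrected counts the HCT-116 counts were 3 and 2, and the irradiation count of labelled resistant HT-29 was 1, as with library size alone, against 4 with no filter. Labelled resistant HT-29 against sensitive HCT-116 had 1 called with only the compared groups. The causes were not tested.

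Of 815 values of named genes, 805 kept direction and call, 9 lost the call and 1 changed sign, MUC2 in sensitive DLD-1 (-0.078 with length-corrected counts). SPINK4 lost its call in sensitive DLD-1 without replicate 1 (-1.08), in resistant against sensitive DLD-1 without replicate 2 (0.943) or the deepest library (0.987), and between lines without replicate 3 (-1.36, against DLD-1) or 2 (2.98, against HCT-116), and TFF2 without replicate 2 (1.45). With length-corrected counts MUC2 lost its call in resistant against sensitive DLD-1 (1.29) and HCT-116 (1.27) and with 5-FU in sensitive HCT-116 (0.813). With library size alone the median of all genes shifted to 0.19 for 5-FU in HT-29 and 0.26 for labelled resistant against sensitive HT-29.

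With a pseudocount of 0.1 the distances of labelled resistant HT-29 were 0.697 to sensitive HCT-116, 4.79 to sensitive HT-29 and 0.557 to resistant HCT-116. Sensitive HT-29 lay 4.94 from HCT-116 and 3.69 from DLD-1, DLD-1 lay 3.96 from HCT-116, and resistant cells lay 0.742 (DLD-1) and 0.637 (HCT-116) from sensitive cells. Replicate numbers did not pair the samples, with same-number correlations between -0.0818 and 0.101. With the replicate number as a block, 5-FU in sensitive HT-29 kept a count of 14 and the difference of DLD-1 responses had 11. Genes at a few counts are limited by depth.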
